A study of Mus musculus with 12 samples.

Results

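Lungs of newborn mice without sphingosine kinase 1 were set against lungs of wild type mice, both kept in high oxygen. The comparison takes all arrays whose treatment is hyperoxia, which gives 3 Sphk1 knockout arrays (SK HO) and 3 wild type arrays (WT HO), 6 of the 12 arrays of the series. Every array holds lung RNA from 1 pup, and every one of the 41345 transcripts on it was tested. The methods name the superior lobe of the right lung for RNA isolation, and elsewhere whole lung tissue. The SK HO pups carried the Sphk1-/- genotype on a hybrid background, from a line crossed to C57BL/6 for 2 generations, and the WT HO pups were controls of mixed background. In both groups the exposure to 75% oxygen began on postnatal day 1 and lasted 7 days. The other 6 arrays, 3 of knockout (SK RA) and 3 of wild type pups (WT RA) in room air, enter below as the same comparison without the oxygen. The study asked whether loss of this kinase changes the response of the newborn lung to an oxygen injury that serves as a model of bronchopulmonary dysplasia, the chronic lung disease of preterm infants.

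Sphingosine kinase 1 adds a phosphate to sphingosine and so makes sphingosine-1-phosphate, a lipid that acts inside cells and, once exported, on a family of G protein-coupled receptors of endothelium, smooth muscle and lymphocytes. Lyases and phosphatases remove it, and ceramidases supply its precursor. In the first weeks after birth the mouse lung divides its air sacs into alveoli, which takes dividing epithelial, mesenchymal and endothelial cells and new elastin and basement membrane. High oxygen at this time is known to stop cell division, induce stress and antioxidant genes and leave fewer and larger alveoli.

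Values are log2 expression values per transcript, so that a difference of 1 is a 2-fold difference, and differences are SK HO minus WT HO throughout unless room air is named. A transcript is called when its p-value from limma, adjusted over all 41345 transcripts by the method of Benjamini and Hochberg, is under 0.05. Values of receptors that lung is not known to use, 1405 olfactory and vomeronasal transcripts, had medians of 2.62 to 2.83 per array and stand for the background.

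The arrays of the knockout group differed among themselves in ways that bear on the results. Xist, the RNA that coats the inactive X chromosome of female cells, was at 3.47, 3.97 and 10.15 in SK HO 1, 2 and 3, against 9.24, 8.88 and 8.41 in WT HO 1, 2 and 3. Eif2s3y, a translation factor gene of the Y chromosome, was at 7.01, 7.77 and 3.52 in SK HO, against 3.45, 3.69 and 3.36 in WT HO. Kdm5d and Uty, which also lie on the Y chromosome, followed Eif2s3y. SK HO 1 and SK HO 2 thus carried the male pattern and the other 4 hyperoxia arrays the female one, although the methods describe male pups, so that under hyperoxia sex-linked expression and genotype are partly confounded. With the Y-linked level of each array as a covariate, 982 transcripts were higher and 677 lower, among them 867 of the 1166 and 626 of the 1208 called without it. With SK HO 3 as the only knockout array, which leaves 1 array assumed to vary like the other groups, 714 were higher and 469 lower. No called transcript turned its sign in either setting.

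SK HO 2 also stood apart. Of the 444 transcripts called lower by at least 2-fold, SK HO 2 was the knockout array nearest to the WT HO mean in 288 (64.9%), SK HO 3 in 111 and SK HO 1 in 45. Of the 499 called higher by at least 2-fold, SK HO 2 was nearest in 303 (60.7%), SK HO 1 in 143 and SK HO 3 in 53. These counts rest on the transcripts selected by the comparison and are given as a description. Without SK HO 2 the numbers of calls were 1376 higher and 1588 lower. Where SK HO 2 decides a value, it is given array by array below.

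Of the 41345 transcripts, 1166 were higher in SK HO than in WT HO (2.82%) and 1208 were lower (2.92%), and 943 of these differed by at least 2-fold. Among the 22180 genes that a single symbol identifies, 972 were higher (4.38%) and 968 lower (4.36%), which are the shares against which the gene lists below are read. In room air the same knockout comparison called 230 transcripts higher (0.556%) and 244 lower (0.59%), or 123 and 201 with each array centred on its own median. The interaction, that is the hyperoxia difference minus the room air difference, was called for 906 transcripts in the positive and 1073 in the negative direction (2.19% and 2.6%). The number of calls depended on single arrays: leaving out 1 of the 6 hyperoxia arrays gave 626 to 1376 higher and 622 to 1588 lower.

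**Figure D1:**
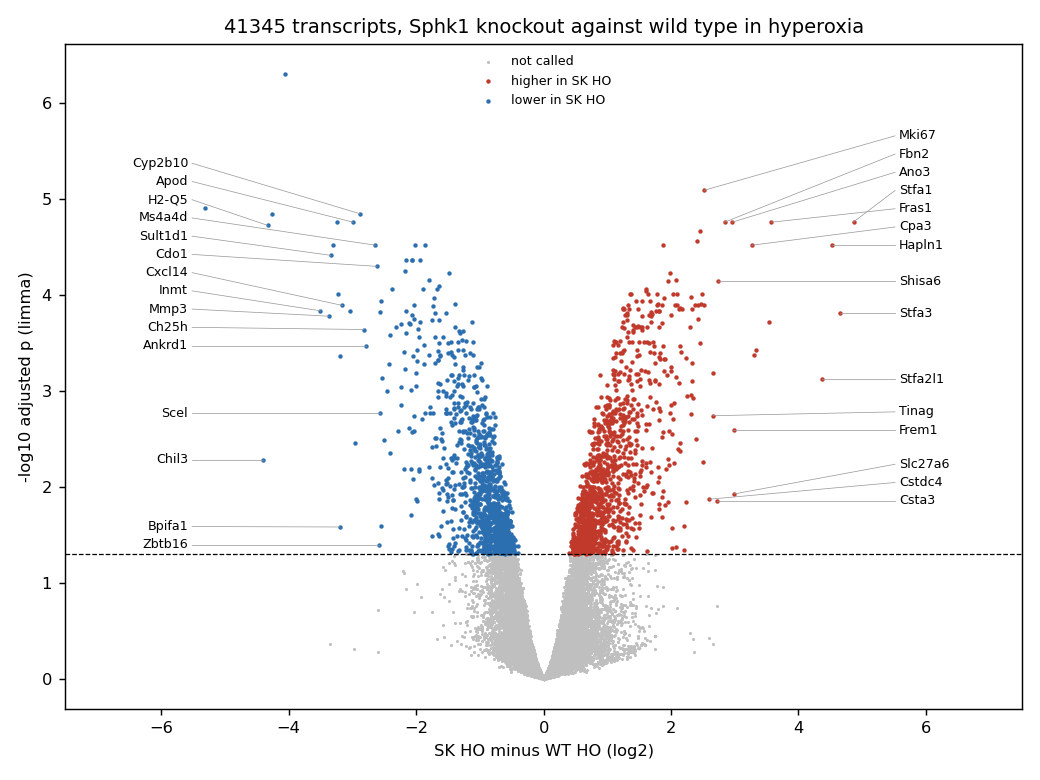
Each point is a transcript, with the difference SK HO minus WT HO on the log2 scale on the x axis and the negative log10 of its adjusted p on the y axis. Called transcripts are coloured, 1166 higher and 1208 lower in SK HO, and the 15 named genes with the largest differences on each side carry their symbols, from Stfa1 (4.86) to Chil3 (-4.41).

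Sphk1 itself was lower in the knockout group under hyperoxia, at 5.70, 6.28 and 5.57 in SK HO against 6.79, 7.50 and 7.04 in WT HO (difference -1.26, standard error 0.23, adjusted p = 0.00816). In room air it was not called, with 5.59, 5.78 and 5.84 in SK RA and 5.37, 4.90 and 5.40 in WT RA (0.51, adjusted p = 0.386), although every knockout array there lay above every wild type array, against the direction that the genotype label would give. No source used here places the probes of this transcript inside or outside the deleted stretch, so these values neither check nor contradict the genotype labels. Among the 25 measured genes of sphingosine-1-phosphate and sphingosine metabolism, 2 were higher and 5 lower, and the 5 include Sphk1 itself. Both counts lay above the shares of all genes, but none was higher without SK HO 2 or without WT HO 1. The lower ones included S1pr1, the receptor of endothelium and lymphocytes, with 10.18, 10.52 and 10.07 in SK HO against 11.10, 11.26 and 11.00 in WT HO (-0.86, standard error 0.16, adjusted p = 0.0102). Sphk2, the second sphingosine kinase, was lower by 0.61 on the log2 scale, the ceramidase Acer3 by 1.10 and the ceramide synthase Cers2 by 0.62. The higher ones were Sgpp2, a phosphatase of sphingosine-1-phosphate (0.90), and Mfsd2b, its exporter in red cells and platelets (0.88). With SK HO 3 as the only knockout array 2 of the 7, Sphk1 and S1pr1, were still called. Leaving out 1 of the 6 hyperoxia arrays ended the calls of Sphk2 and Cers2 in 5 cases, those of Acer3 and Mfsd2b in 4, that of Sgpp2 in 3 and that of S1pr1 in 2.

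Genes of mitosis were higher in SK HO, and the arrays of Mki67, Cenpe, Kif11 and Top2a did not overlap between the groups, as was the case for 23.6% of all transcripts. Mki67, the nuclear protein used as a proliferation marker, was at 8.54, 8.33 and 8.38 in SK HO against 5.74, 5.93 and 6.02 in WT HO (2.52, standard error 0.13, adjusted p = 8.14e-06). Of 29 measured genes of the G2 phase and mitosis, 28 were called higher and none lower, with a median difference of 1.45 where the median of all genes was -0.03. The motor protein Cenpe, which carries chromosomes to the spindle equator, was at 6.51, 6.35 and 6.28 in SK HO against 4.55, 4.61 and 4.38 in WT HO. Kif11, the motor that separates the spindle poles, was at 6.48, 6.93 and 6.80 in SK HO against 4.74, 4.65 and 4.88 in WT HO. Top2a, the topoisomerase that untangles sister chromosomes, was at 7.18, 7.21 and 7.18 in SK HO against 4.99, 5.07 and 5.29 in WT HO. The list mean of the lowest knockout array (6.23) lay above that of the highest wild type array (4.95), and 24 of the 29 were called with SK HO 3 as the only knockout array. In these bulk samples a larger number of dividing cells and more RNA per dividing cell cannot be told apart.

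In room air the order of the genotypes was the reverse for this list: 28 of the 29 genes were called lower in SK RA and none higher, with a median of -1.42, where 0.911% of all genes were called lower and 0.604% higher. Mki67 was at 8.31, 8.04 and 8.15 in SK RA against 9.91, 9.91 and 9.82 in WT RA (-1.71, adjusted p = 0.000365). The level of Mki67 in SK HO thus lay near that of SK RA, and WT HO lay lowest of the 4 groups. The interaction was called for 29 of the 29 genes, all in the positive direction, against 3.39% of all genes.

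Promoters of this list were searched for the elements that are known to time transcription to G2 and mitosis, the CHR, written TTTGAA here, and the CCAAT box, on either strand, in the 250 bases before the start of the gene as annotated by RefSeq (GRCm38.p6). Of the 25 genes with a promoter in this table, 8 held the CHR letters (32%), 18 a CCAAT (72%) and 7 had both (28%), while 14.2%, 35.6% and 5.17% of the 16990 promoters of measured genes did. A match is a description of the letters and no evidence that a factor binds. Of the called genes with both, 6 are shown, those with the smallest adjusted p once genes of 1 chromosome had been left out. They are printed 5′ to 3′ in the direction of the gene, ending 1 base before the start. CHR and CCAAT letters are in capitals, to let the spacing of the elements be seen.
Kif11 (chr19:37376132-37376381, + strand): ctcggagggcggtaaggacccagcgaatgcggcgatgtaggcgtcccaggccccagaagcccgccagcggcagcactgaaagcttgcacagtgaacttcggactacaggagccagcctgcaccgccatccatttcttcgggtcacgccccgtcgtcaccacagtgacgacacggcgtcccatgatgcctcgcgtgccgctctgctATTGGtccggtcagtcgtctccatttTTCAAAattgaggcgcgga
Top2a (chr11:99024190-99024439, - strand): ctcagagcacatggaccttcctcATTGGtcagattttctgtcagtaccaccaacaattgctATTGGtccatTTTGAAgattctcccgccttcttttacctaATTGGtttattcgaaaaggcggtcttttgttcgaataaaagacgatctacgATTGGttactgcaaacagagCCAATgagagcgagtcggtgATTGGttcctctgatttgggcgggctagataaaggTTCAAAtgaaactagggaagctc
Ccnb2 (chr9:70421555-70421804, - strand): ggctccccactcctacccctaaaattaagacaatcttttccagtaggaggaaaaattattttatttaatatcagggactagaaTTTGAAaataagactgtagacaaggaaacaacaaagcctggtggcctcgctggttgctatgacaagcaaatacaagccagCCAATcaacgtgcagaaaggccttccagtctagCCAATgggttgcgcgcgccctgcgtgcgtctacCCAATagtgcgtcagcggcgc
Cdk1 (chr10:69352913-69353162, - strand): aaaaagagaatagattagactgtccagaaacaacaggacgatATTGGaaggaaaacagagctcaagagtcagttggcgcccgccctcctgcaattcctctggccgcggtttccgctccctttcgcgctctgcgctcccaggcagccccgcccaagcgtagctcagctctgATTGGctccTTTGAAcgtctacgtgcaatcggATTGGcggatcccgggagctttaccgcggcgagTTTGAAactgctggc
Ect2 (chr3:27153879-27154128, - strand): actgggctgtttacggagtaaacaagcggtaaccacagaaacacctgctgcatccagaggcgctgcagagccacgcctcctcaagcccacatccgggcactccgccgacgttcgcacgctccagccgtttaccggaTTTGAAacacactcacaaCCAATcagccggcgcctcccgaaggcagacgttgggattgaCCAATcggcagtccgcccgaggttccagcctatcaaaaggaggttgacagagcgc
Ube2c (chr2:164769679-164769928, + strand): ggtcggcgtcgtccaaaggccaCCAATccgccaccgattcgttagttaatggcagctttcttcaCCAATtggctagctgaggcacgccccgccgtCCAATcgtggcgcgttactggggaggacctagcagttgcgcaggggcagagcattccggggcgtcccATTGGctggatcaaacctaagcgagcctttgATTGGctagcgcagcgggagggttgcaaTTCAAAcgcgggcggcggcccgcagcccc
In Kif11, Top2a, Cdk1 and Ube2c the CHR letters nearest to the start began 15 to 29 bases before it, downstream of a CCAAT or its reverse, ATTGG. In Ccnb2 and Ect2 they lay 167 and 114 bases before the start. Kif11, Top2a and Cdk1, the kinase that drives entry into mitosis, are called higher in SK HO by 1.98, 2.07 and 1.74.

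Genes of DNA replication and of repair by recombination moved in the same direction but in smaller number. Of 24 measured replication genes 9 were higher and none lower (median 0.56). Rrm2, the ribonucleotide reductase subunit that supplies deoxynucleotides, was at 5.98, 6.15 and 6.34 in SK HO against 4.92, 4.96 and 5.37 in WT HO (1.07, adjusted p = 0.00337). Pole, the leading strand polymerase, differed by 1.26, and Tk1, thymidine kinase, by 0.87. In room air 16 of the 24 were lower in SK RA and none higher. With SK HO 3 as the only knockout array the count was 4, and without WT HO 1 it was 5. Of 12 genes of homologous recombination and the Fanconi pathway 5 were higher, among them Brca2, which loads the recombinase onto broken DNA, at 5.85, 5.98 and 5.76 in SK HO against 4.75, 4.88 and 4.63 in WT HO (1.11, adjusted p = 0.00076). Of 22 targets of p53 1 was higher, a share near that of all genes, and 3 were lower, a share above it, with Btg2, a brake of the cell cycle, lower by 0.96.

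**Figure D2:**
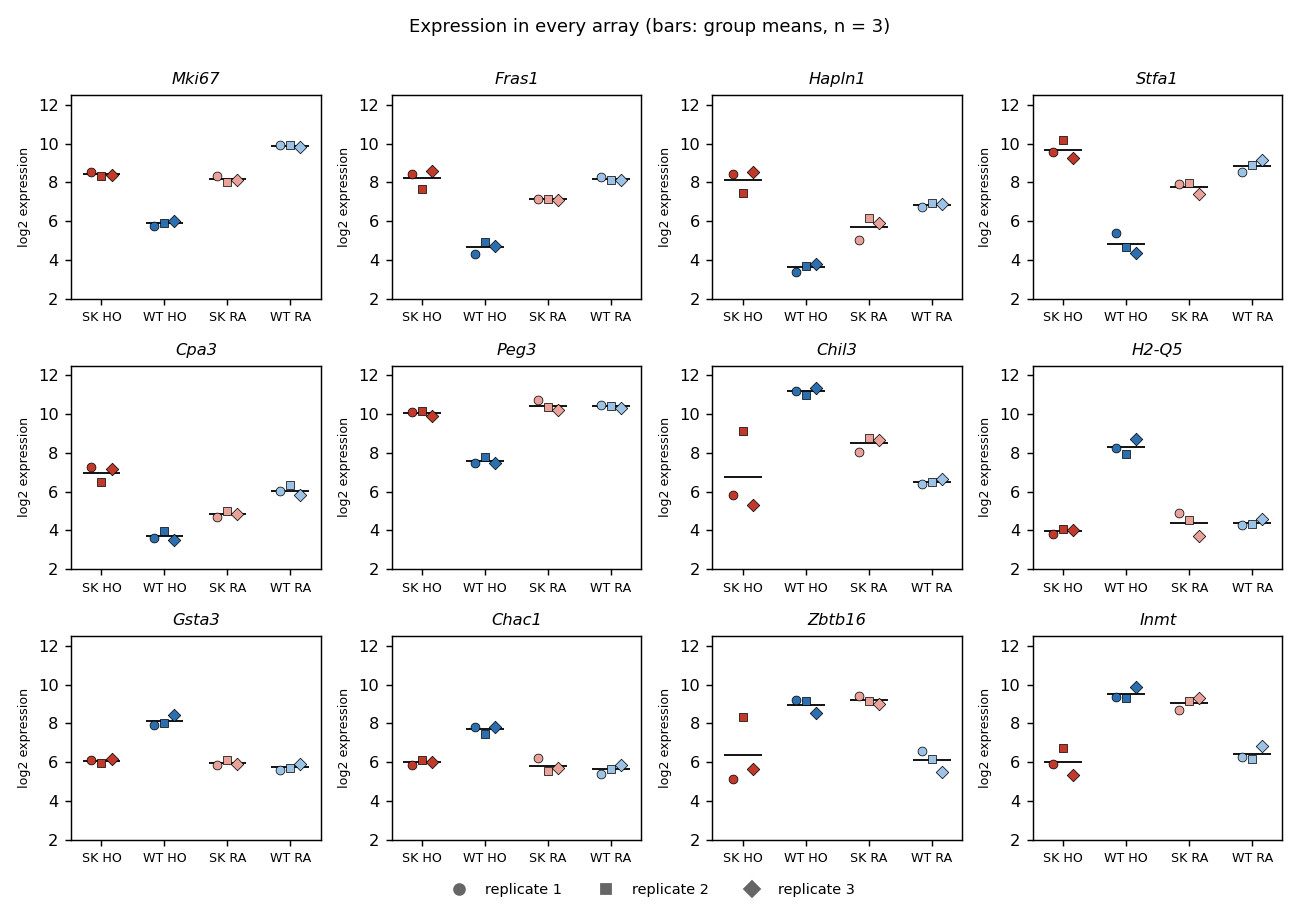
Log2 expression of 12 genes in each array, with 1 point per array, horizontal bars at the group mean and the groups in the order SK HO, WT HO, SK RA, WT RA. Mki67 and Fras1 are high in SK HO and low in WT HO without overlap, H2-Q5 is high in WT HO alone, and SK HO 2 lies apart from the other knockout arrays for Chil3 (9.15, between the groups) and Zbtb16 (8.33, near WT HO).

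The largest difference among the named genes was that of Stfa1, a stefin A, which inhibits cysteine proteases inside cells and is abundant in neutrophils and their precursors. It was at 9.60, 10.19 and 9.24 in SK HO against 5.41, 4.65 and 4.37 in WT HO (4.86, standard error 0.31, adjusted p = 1.75e-05). Stfa3 was at 6.64, 8.32 and 6.67 in SK HO against 2.60, 2.35 and 2.70 in WT HO, where it lay at the background of the arrays. Stfa2l1 was at 9.47, 10.42 and 8.84 in SK HO against 4.77, 4.33 and 6.52 in WT HO. In all, 6 of 9 measured genes of this cluster were higher and none lower, with a median difference of 2.60. These genes are near copies of each other, so that probes of one may read another and the 6 are not independent. In room air none of the 9 was called and the median was -0.48. With SK HO 3 as the only knockout array 3 of the 9 were called.

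Most other genes of neutrophils were not called. Of 25 measured neutrophil markers 6 were higher, which are 4 stefins with Ngp and Camp, proteins of the specific granules, and 1 was lower. Ngp was at 6.43, 6.78 and 6.46 in SK HO against 4.43, 4.31 and 4.86 in WT HO (2.02, adjusted p = 0.00282). The calprotectin subunit S100a8 was at 7.20, 8.73 and 7.00 in SK HO and 7.04, 5.78 and 7.16 in WT HO (adjusted p = 0.362). Csf3r, the receptor for the neutrophil growth factor, was at 6.53, 7.81 and 6.85 in SK HO and 7.30, 6.47 and 7.60 in WT HO (adjusted p = 0.95). Ly6g and Elane lay between 3.70 and 4.73 in all 6 arrays. S100a8 and Csf3r were highest in SK HO 2, and the groups overlapped for both.

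Proteases of mast cells were higher in SK HO as well. Cpa3, the carboxypeptidase of mast cell granules, was at 7.25, 6.48 and 7.16 in SK HO against 3.60, 3.98 and 3.49 in WT HO (3.27, standard error 0.22, adjusted p = 3.04e-05). Tpsb2, a tryptase, differed by 2.01, and the chymases Mcpt4 and Cma1 by 1.61 and 1.32. These 4 are the called ones of 15 measured mast cell genes. The receptor Kit, at 6.57, 6.89 and 6.96 in SK HO and 6.43, 6.42 and 6.46 in WT HO, and the IgE receptor subunit Ms4a2, at 3.81, 3.59 and 3.77 in SK HO and 3.58, 3.10 and 3.60 in WT HO, were not called. In room air Cpa3 and Mcpt4 were called as well, with differences of -1.20 and -1.19 (SK RA minus WT RA).

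Matrix and basement membrane genes made up many of the largest positive differences. Hapln1, which fastens proteoglycans to hyaluronan, was at 8.43, 7.47 and 8.52 in SK HO against 3.36, 3.71 and 3.77 in WT HO (4.53, standard error 0.32). Fras1, of the complex that anchors epithelium to the underlying mesenchyme in the embryo, was at 8.43, 7.67 and 8.57 in SK HO against 4.31, 4.91 and 4.72 in WT HO (3.58, adjusted p = 1.75e-05). Its partner Frem1 was at 8.93, 7.01 and 9.33 in SK HO against 5.24, 5.64 and 5.45 in WT HO, and Frem2 at 6.15, 5.23 and 7.02 in SK HO against 4.26, 4.44 and 4.54 in WT HO. For both, SK HO 2 was the lowest knockout array. Npnt, the nephronectin that this complex holds in the basement membrane, was the fourth called of 7 measured genes and differed by 0.69, a call that was lost without any 1 of 5 hyperoxia arrays and kept without SK HO 2. Fbn2, the fibrillin of developing elastic fibres, was at 7.06, 6.75 and 7.41 in SK HO against 4.12, 4.35 and 4.22 in WT HO (2.84).

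Of 33 collagen chains 16 were higher and 1 lower, and of 10 laminin chains 8 were higher and 1 lower, with medians of 0.62 and 0.97. Col6a3 of the beaded filaments was at 8.73, 8.61 and 9.09 in SK HO against 7.28, 7.10 and 7.01 in WT HO, and Lamc1, the gamma chain of most laminins, at 11.21, 11.03 and 11.30 in SK HO against 9.97, 9.95 and 9.77 in WT HO. Lama3, of the laminin under epithelium, differed by 2.07, and Lamc3 was the chain that was lower. The collagen that went the other way was Col8a1, a short chain collagen of vessel walls, with 5.46, 5.99 and 5.23 in SK HO against 7.51, 7.49 and 7.05 in WT HO (-1.79). Among 19 genes of elastic fibres and their crosslinking, 6 were higher and 2 lower. The higher count was 9 without SK HO 2 and 4 without any other single hyperoxia array. Fbln5, which guides elastin onto microfibrils, differed by 2.00, Ltbp2 by 1.97 and elastin itself, Eln, by 0.84. Eln was also higher in SK RA than in WT RA (0.89, adjusted p = 0.013) and its interaction was not called (adjusted p = 0.946). In room air none of the collagen and laminin chains was called in either direction.

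**Figure D3:**
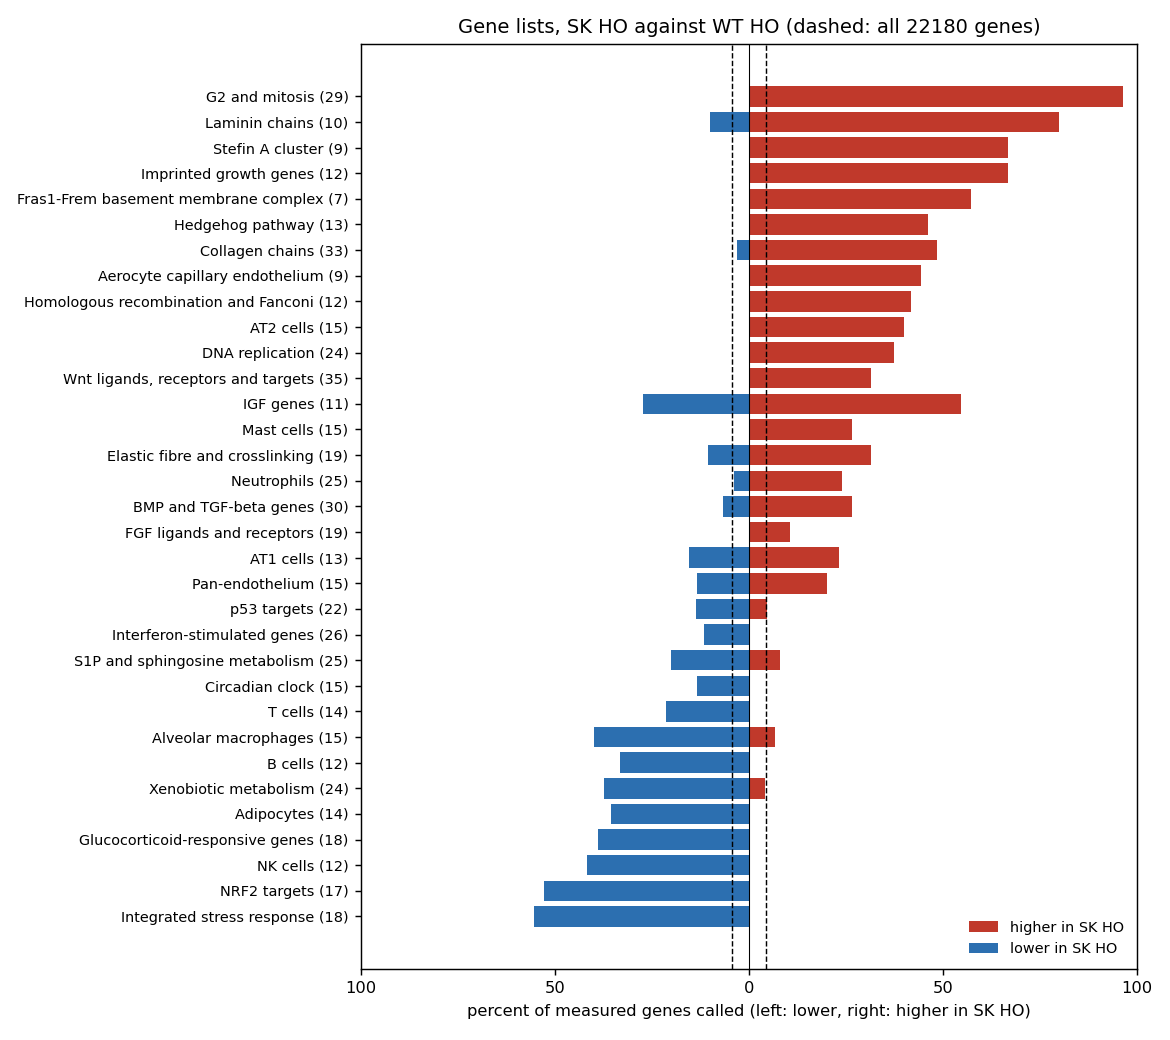
For each of 33 gene lists, the percentage of its measured genes called higher (right) or lower (left) in SK HO than in WT HO, with the number of measured genes beside the name. Dashed lines mark 4.38% and 4.36%, the shares among all 22180 genes. Mitosis and laminin genes reach furthest to the right and the integrated stress response and NRF2 targets furthest to the left.

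Growth genes of the fetal and newborn period were higher. Of 12 imprinted growth genes, which mammals express from 1 parental copy and turn down after birth, 8 were higher and none lower (median 1.05). Peg3 was at 10.12, 10.15 and 9.88 in SK HO against 7.50, 7.80 and 7.47 in WT HO (2.46, adjusted p = 2.17e-05), and at 10.22 to 10.73 in the 6 room air arrays. Mest differed by 1.78, Zim1 by 1.74 and Plagl1, a zinc finger regulator of this group of genes, by 1.14. Of 11 genes of the insulin-like growth factors 6 were higher and 3 lower, and 1 was lower without WT HO 1 or WT HO 2. Igf1, the growth factor, was at 8.18, 7.81 and 7.77 in SK HO against 6.46, 6.38 and 6.27 in WT HO (1.55), and its receptor Igf1r differed by 1.07. Igf2bp3, a fetal RNA-binding protein, was at 6.83, 7.43 and 7.14 in SK HO against 4.21, 4.76 and 4.96 in WT HO (2.49). Igfbp6, which binds and restrains these factors, was at 5.47, 6.27 and 6.22 in SK HO against 8.08, 8.10 and 8.34 in WT HO (-2.19).

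Signals between epithelium and mesenchyme leaned the same way. Of 13 hedgehog genes 6 were higher and none lower: the transcription factors Gli1, Gli2 and Gli3 differed by 0.89, 1.22 and 1.17, and the receptor Ptch1, itself a target, by 1.41. Hhip, a membrane protein that binds hedgehog ligands, was at 10.03, 8.95 and 10.38 in SK HO against 7.43, 7.43 and 7.47 in WT HO (2.35). Of 35 Wnt genes 11 were higher and none lower, among them the ligands Wnt3a (1.81) and Wnt5a (1.51), the receptor Fzd2 (1.83) and the feedback target Axin2 (0.76). The Wnt count fell to 3 without SK HO 3, 4 without SK HO 1 and 9 with SK HO 3 alone. Of 30 genes of the BMP and TGF-beta families 8 were higher and 2 lower, against 5 higher without WT HO 1 or WT HO 3 and 4 lower without SK HO 2. Tgfbi, a matrix protein induced by TGF-beta, was at 11.29, 11.10 and 11.46 in SK HO against 9.36, 9.46 and 9.71 in WT HO (1.77), Inhba, an activin subunit, differed by 1.83, and Chrdl1, an antagonist of BMPs, by -2.16. Of 19 FGF genes 2 were higher, the receptor Fgfr2 (1.10) and the ligand Fgf18 (1.52), and this count was 6 without SK HO 2, 5 with SK HO 3 alone and 1 without SK HO 1, SK HO 3 or WT HO 1.

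Markers of the alveolar epithelium did not move as blocks. Of 15 markers of AT2 cells, which make surfactant, 6 were higher and none lower. Lyz1, a lysozyme of these cells, was at 9.06, 9.50 and 9.83 in SK HO against 7.64, 6.87 and 7.50 in WT HO (2.13), Fasn, fatty acid synthase, differed by 1.32 and the surfactant protein gene Sftpc by 0.54. Sftpb had 12.17, 12.20 and 12.27 in SK HO and 12.36, 12.36 and 12.48 in WT HO (adjusted p = 0.469). Of 13 markers of AT1 cells, the thin cells of gas exchange, 3 were higher and 2 lower. Rtkn2 was at 9.41, 8.89 and 9.09 in SK HO against 6.99, 6.92 and 7.39 in WT HO (2.03), whereas Ager, the receptor RAGE, which AT1 cells carry, was at 11.94, 11.89 and 12.06 in SK HO and 11.96, 12.04 and 12.01 in WT HO (adjusted p = 0.918). The AT2 count was 3 without SK HO 3, WT HO 1 or WT HO 2 and with SK HO 3 alone, and no AT1 marker was called lower without WT HO 1 or WT HO 2. Of 13 genes of injured, transitional epithelium 1 was higher and 2 lower, and 6 were lower without SK HO 2. The lower ones were the growth factor Hbegf, at 7.40, 8.63 and 7.70 in SK HO against 9.42, 9.61 and 9.59 in WT HO, and the lectin Lgals3 (-1.15), and the higher one was the integrin chain Itgb6 (0.55), whose call was lost without any 1 of the 6 hyperoxia arrays. Scel, sciellin of stratified epithelia and outside that list, was at 6.64, 7.99 and 6.38 in SK HO against 9.64, 9.51 and 9.58 in WT HO.

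Endothelial genes changed in both directions. Kdr, the main receptor for VEGF, was at 11.11, 10.29 and 11.28 in SK HO against 9.64, 9.61 and 9.60 in WT HO (1.28, adjusted p = 0.00565). Of 9 markers of aerocytes, the capillary cells of gas exchange, 4 were higher and none lower, with the endothelin receptor Ednrb at 1.19 and the ligand Apln at 1.14. The higher count was 5 without SK HO 2 and 3 without any other single hyperoxia array. Car4, another of the 9, had 8.68, 8.16 and 8.92 in SK HO and 8.40, 8.15 and 8.28 in WT HO (adjusted p = 0.423). Nos3, endothelial nitric oxide synthase, was at 6.66, 6.94 and 6.68 in SK HO against 8.22, 8.19 and 7.92 in WT HO (-1.35). Gpihbp1, which holds lipoprotein lipase on capillaries, was lower by 1.10 on the log2 scale. Of 10 markers of general capillary endothelium, Gpihbp1 was lower, Aplnr was higher and 8 were not called. Aplnr was at 7.34, 7.06 and 7.74 in SK HO against 5.27, 5.52 and 6.23 in WT HO (1.71, adjusted p = 0.00398). Of 15 pan-endothelial markers 3 were higher and 2 lower, but 1 was higher without SK HO 1, SK HO 3, WT HO 1 or WT HO 2, with the Y-linked covariate and with SK HO 3 alone. Pecam1 had 9.47, 9.21 and 9.54 in SK HO and 9.80, 9.45 and 9.75 in WT HO (adjusted p = 0.347).

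On the other side, genes of cellular stress were lower in SK HO. Of 18 targets of the integrated stress response, which ATF4 drives when translation is held back, 10 were lower and none higher, with a median of -1.04. Chac1, which breaks down glutathione, was at 5.85, 6.11 and 5.98 in SK HO against 7.81, 7.43 and 7.83 in WT HO (-1.71, adjusted p = 0.00051). Mthfd2, a mitochondrial folate enzyme, was at 5.35, 6.45 and 6.28 in SK HO against 7.86, 7.77 and 7.79 in WT HO, and the pseudokinase Trib3 at 5.89, 6.95 and 6.46 in SK HO against 8.09, 8.13 and 8.30 in WT HO. In room air none of the 18 was called. The count stayed between 9 and 13 under every setting tried.

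Of 17 targets of NRF2, the factor that induces antioxidant genes, 9 were lower and none higher (median -0.73). Gsta3, a glutathione transferase, was at 6.09, 5.95 and 6.15 in SK HO against 7.93, 8.02 and 8.42 in WT HO (-2.06, adjusted p = 4.38e-05), and near 6 in room air, with 5.85, 6.08 and 5.88 in SK RA and 5.61, 5.69 and 5.89 in WT RA. Nqo1, a quinone reductase, was lower by 1.29 and Gclm, of glutathione synthesis, by 0.71. The count fell to 5 with the Y-linked covariate, to 4 with SK HO 3 alone and to 4 or 5 without any 1 hyperoxia array other than SK HO 2, without which it was 12. The metallothioneins, which bind zinc, depended on SK HO 2: Mt2 was at 9.63, 11.43 and 9.71 in SK HO against 11.70, 11.80 and 11.73 in WT HO. Among 24 genes of the metabolism of foreign compounds 9 were lower and 1 was higher. The lower ones were 7 of the 15 enzymes of the FMO, Inmt, Aox and cytochrome P450 families, the drug transporter Abcb1b and the epoxide hydrolase Ephx1, and the higher one was Ahr, the receptor for aryl hydrocarbons (0.96, adjusted p = 0.00219). Cyp2b10, the enzyme induced through the receptor CAR, was at 7.39, 7.83 and 7.26 in SK HO against 10.35, 10.41 and 10.36 in WT HO (-2.88, adjusted p = 1.43e-05). Sult1d1, a sulfotransferase outside that list, was at 3.25, 3.88 and 3.07 in SK HO, close to background, against 6.52, 6.98 and 6.73 in WT HO (-3.34).

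Genes that respond to glucocorticoids, immediate early factors and clock genes were lower where called. Of 18 glucocorticoid-responsive genes 7 were lower and none higher (median -0.75), but these leaned on single arrays, with 2 called without SK HO 1, 10 without SK HO 2, 2 without SK HO 3 and 3 without any 1 of the WT HO arrays. Zbtb16 was at 5.12, 8.33 and 5.63 in SK HO against 9.21, 9.13 and 8.51 in WT HO, and Crispld2 at 6.35, 7.56 and 6.02 in SK HO against 9.21, 9.36 and 8.96 in WT HO. The call of Zbtb16 was kept without SK HO 2 and lost without any 1 of the other 5 hyperoxia arrays. In room air Zbtb16 was the other way round, with 9.41, 9.16 and 8.99 in SK RA against 6.57, 6.17 and 5.51 in WT RA (3.10, adjusted p = 0.047). Fos was at 7.68, 8.16 and 8.03 in SK HO against 9.14, 9.09 and 9.30 in WT HO (-1.22). Nr1d1, the clock repressor REV-ERB alpha, was at 7.91, 7.69 and 7.92 in SK HO against 9.16, 9.21 and 9.51 in WT HO (-1.45), while 2 of 15 clock genes were called, both lower.

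Macrophage genes held the largest negative difference among the named genes. Chil3, a chitinase-like protein that macrophages secrete, was at 5.83, 9.15 and 5.29 in SK HO against 11.17, 11.01 and 11.33 in WT HO (-4.41, standard error 0.74, adjusted p = 0.00522). Of 15 markers of alveolar macrophages 6 were lower and 1 higher. Ctsk, the protease cathepsin K, was at 5.97, 6.16 and 5.84 in SK HO against 8.47, 8.18 and 8.45 in WT HO (-2.38), Krt79 differed by -1.97 and Pparg, the regulator of these cells, by -0.89. The scavenger receptor Marco had 7.51, 7.96 and 7.21 in SK HO and 7.10, 7.12 and 7.18 in WT HO (adjusted p = 0.274). Pparg and Cidec also belong to the adipocyte list, of which 5 of 14 were lower, and the mean of that list was 5.20 to 5.31 in SK HO against 5.81 to 7.04 in WT HO, highest in WT HO 2. Without WT HO 2, 3 of the 14 adipocyte genes and again 6 of the 15 alveolar macrophage genes were lower.

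Genes of natural killer, T and B cells were lower in small numbers. Of 12 markers of natural killer cells 5 were lower and none higher (median -0.74), with the granzyme Gzma at 3.35, 3.95 and 4.28 in SK HO against 5.48, 5.91 and 6.29 in WT HO (-2.03, adjusted p = 0.00182) and the receptor chain Klrd1 at 4.35, 4.31 and 4.61 in SK HO against 5.84, 5.96 and 5.50 in WT HO. Of 14 T cell markers 3 were lower, among them Il7r, the receptor for interleukin-7, with 4.39, 5.23 and 5.10 in SK HO against 6.63, 6.80 and 6.24 in WT HO. In room air Il7r was higher in the knockout, with 5.93, 5.84 and 5.94 in SK RA against 4.10, 4.10 and 4.01 in WT RA (1.83, adjusted p = 0.00215). Of 12 B cell markers 4 were lower under hyperoxia and 6 were higher in room air. Without WT HO 3 the natural killer count was 3 and the B cell count 2, which it also was without WT HO 2, SK HO 1 or SK HO 2. With SK HO 3 as the only knockout array none of the natural killer and B cell genes and 1 of the T cell genes was called.

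Antigen presentation genes of the mouse H2 complex, a group chosen after its values were seen, included a difference nearly as large. H2-Q5, a class I gene, was at 3.81, 4.07 and 4.03 in SK HO against 8.24, 7.92 and 8.74 in WT HO (-4.33, adjusted p = 1.89e-05). In room air it was at 4.88, 4.51 and 3.72 in SK RA and 4.29, 4.33 and 4.58 in WT RA, so that WT HO stood alone. H2-Q4 was at 5.98, 6.58 and 6.78 in SK HO against 8.53, 8.49 and 8.86 in WT HO, and H2-K1, a classical class I gene, at 7.22, 7.86 and 7.87 in SK HO against 9.33, 8.85 and 9.01 in WT HO (-1.41). B2m, the chain that class I molecules share, was at 12.01, 11.92 and 12.19 in SK HO against 12.93, 12.88 and 12.99 in WT HO (-0.89). Of 34 measured symbols that begin with H2, taken by name alone, 13 were called lower and none higher. In room air none was lower and 1 higher. This count is given for the main fit only. Of 15 measured genes of class II antigen presentation and dendritic cells 3 were lower, all of them H2 genes, and 1 was higher. None of the 15 was called lower with the Y-linked covariate or without WT HO 2. Without any other single hyperoxia array 1 to 3 were lower. Several class I genes of this complex are close copies of each other, so that probes of one may read another. The 13, which hold class I and class II genes, are therefore not all independent. Of 26 interferon-stimulated genes 3 were lower and none higher, with Ifi205, a DNA sensor of the interferon-inducible family, at 6.52, 7.75 and 7.08 in SK HO against 9.61, 9.12 and 9.33 in WT HO (-2.23).

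**Figure D4:**
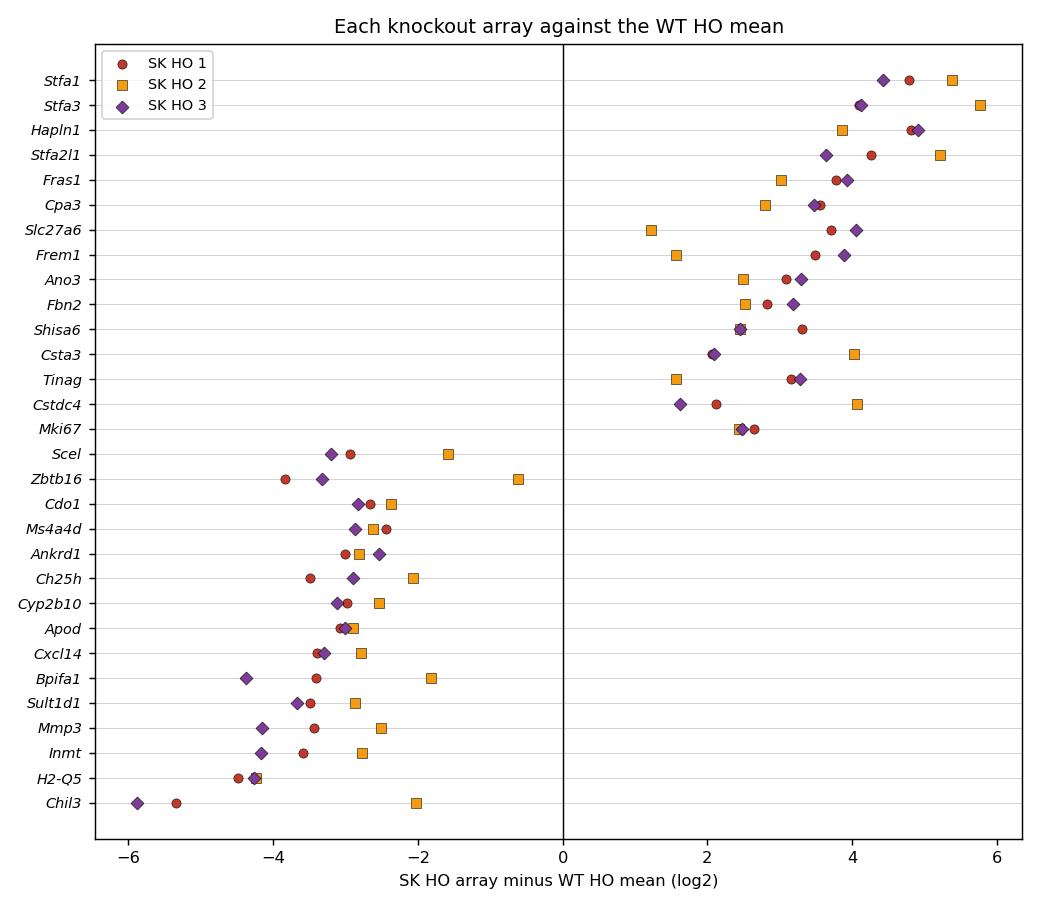
Difference of each SK HO array from the WT HO mean, on the log2 scale, for the 30 named genes with the largest differences, 15 higher above and 15 lower below. SK HO 2 is the point nearest to the zero line for Chil3, Zbtb16, Frem1 and Slc27a6, and the farthest from it for the stefins Stfa1 and Stfa3.

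Several other named genes carried large differences. Among the higher ones, Slc27a6, a fatty acid transporter, was at 9.43, 6.95 and 9.77 in SK HO against 5.50, 5.79 and 5.88 in WT HO. Ano3, of the anoctamin family, was at 6.85, 6.26 and 7.06 in SK HO against 3.59, 3.79 and 3.92 in WT HO, and at 3.71 to 3.88 in the 6 room air arrays, so that SK HO stood alone. Shisa6 differed by 2.74 and Tinag, a basement membrane protein, by 2.66. Among the lower ones, Cxcl14, a chemokine, was at 6.35, 6.95 and 6.45 in SK HO against 9.73, 9.66 and 9.83 in WT HO (-3.16). Inmt, a methyltransferase of lung fibroblasts, was at 5.92, 6.74 and 5.34 in SK HO against 9.35, 9.29 and 9.88 in WT HO (-3.50), whereas in room air it was at 8.69, 9.13 and 9.29 in SK RA against 6.27, 6.18 and 6.82 in WT RA (2.61). Mmp3, the protease stromelysin, differed by -3.37, the lipocalin Apod by -2.99 and the cholesterol 25-hydroxylase Ch25h by -2.82. Ankrd1, a target of the mechanosensitive factor YAP, was at 8.48, 8.68 and 8.95 in SK HO against 11.61, 11.68 and 11.18 in WT HO (-2.79).

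The hyperoxia and room air comparisons use different arrays, although they share the estimate of the spread of each transcript. Of the 244 transcripts called lower in room air (SK RA against WT RA), 171 (70.1%) were called higher in SK HO than in WT HO, which is 14.7% of the 1166 called there. Of the 230 called higher in room air, 63 (27.4%) were called lower under hyperoxia, 5.22% of the 1208. The same direction at both oxygen levels was called for 13 transcripts that were higher and 3 that were lower. The median room air difference was -0.15 over the transcripts higher under hyperoxia and 0.14 over those lower. Mitosis and replication genes made up part of the first group, and Inmt, Zbtb16 and Il7r belong to the second.

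**Figure D5:**
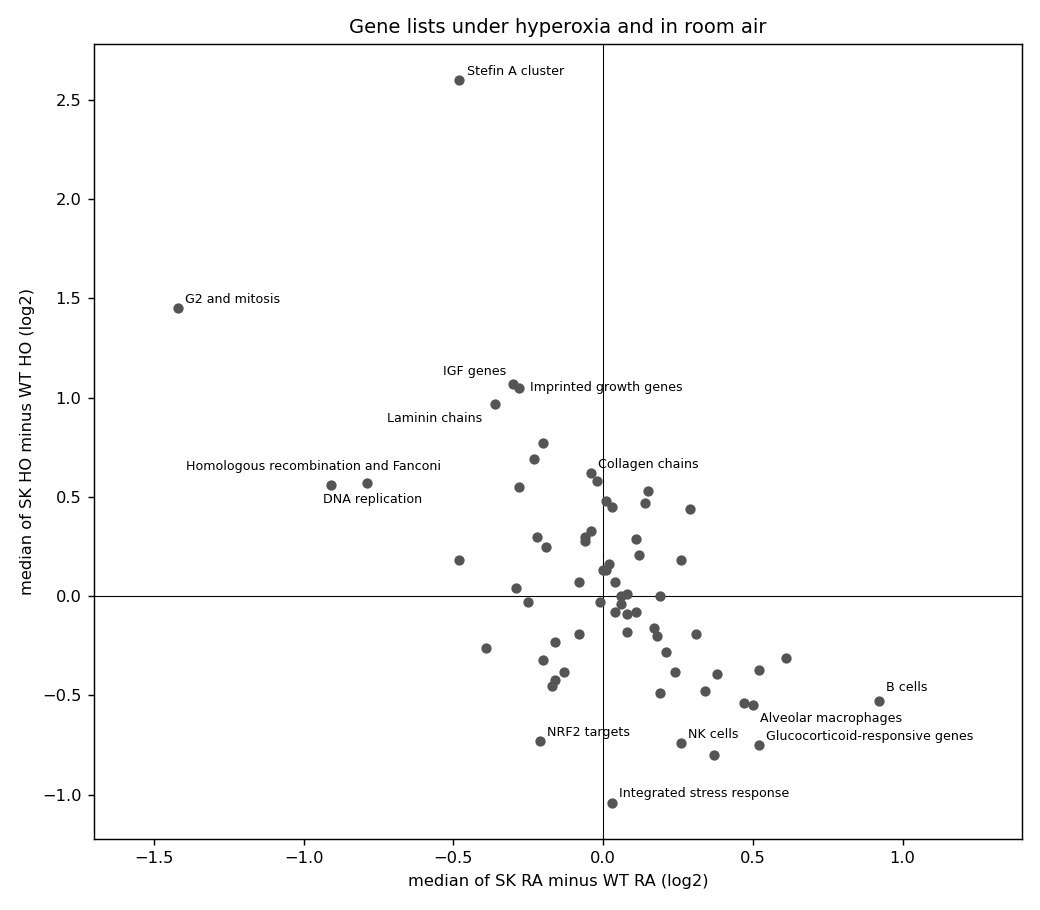
Median difference of each gene list between knockout and wild type, under hyperoxia on the y axis (SK HO minus WT HO) and in room air on the x axis (SK RA minus WT RA), both on the log2 scale. The G2 and mitosis list lies at 1.45 and -1.42, the stefin A cluster at 2.60 and -0.48, and the integrated stress response at -1.04 and 0.03.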

How the data were processed

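Total RNA of lung was measured on Affymetrix MoGene 2.0 ST arrays, 1 per pup, in 4 groups of 3. The authors processed the arrays by RMA (background correction, quantile normalization, summary per transcript) in Partek Genomics Suite 6.6 and deposited log2 values, which narrow differences near background. No source used here gives the genome build. Of 41345 transcripts, 23521 have 1 symbol in the platform's gene table, 1820 several and 16004 are not listed. For each of 22180 symbols the transcript with the highest mean was used.

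All 12 arrays were fitted with limma 3.58.1 (R 4.3.3), 1 mean per group, moderated variances and Benjamini-Hochberg adjustment over all transcripts. P-values measure the spread between pups. The labels and methods do not give the litter of each pup, so a difference between litters cannot be told apart from one between groups. On simulated data with known changes, the fit was checked before use. The named genes are Sphk1, the 15 largest called differences in each direction whose arrays do not overlap, and members of gene lists. Symbols of predicted genes, clone or accession names and olfactory or vomeronasal receptors were left out of the 15. Of each of 70 gene lists up to 5 members with the smallest p were taken, with defining markers. Ccnb2, Cdk1, Ect2, Ube2c, the H2 genes, Meox2, Slit2, Abcb1b and Ephx1 were added after their values were seen. The members and lists were chosen with earlier results of these data known. Alternatives covered the variance, filter, scaling, weights, sex-linked signal, replicate block and omission of arrays. Ddx3y was not used in the Y-linked level, which is the mean of Eif2s3y, Kdm5d and Uty.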

Additional observations from a re-analysis of the deposited data

Results flagged for a closer look

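The difference between the genotypes under hyperoxia was set against that in room air for Sphk1 and the 30 named genes with the largest differences, by the interaction term of the limma fit, which is SK HO minus WT HO, less SK RA minus WT RA. All 31 differed by that test, with adjusted p of 2.48e-06 to 0.0431. The 30 were chosen by their hyperoxia difference, which is part of the interaction, so a difference of this kind had to be frequent among them. For 6 of the 31 the room air difference was itself called, and each of these had the opposite sign to the difference under hyperoxia: Mki67, Cpa3, Shisa6 and Fbn2 were lower in SK RA, and Inmt and Zbtb16 were higher.

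The interaction was positive for 15 genes. It was largest for the stefins Stfa3 (6.47), Stfa1 (5.97) and Stfa2l1 (5.48) and smaller for their relatives Csta3 (3.26) and Cstdc4 (2.96). Among matrix and basement membrane genes it was 5.68 for Hapln1, 4.61 for Fras1, 4.03 for Fbn2, 3.95 for Frem1 and 3.11 for Tinag. The transporter Slc27a6 had 4.92, Shisa6 4.53, the mast cell protease Cpa3 4.47, the proliferation marker Mki67 4.24 and the anoctamin Ano3 2.95.

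It was negative for 16 genes. Chil3 had -6.41, the methyltransferase Inmt -6.11 and the glucocorticoid-responsive Zbtb16 -5.69. Cxcl14 had -4.48, the class I gene H2-Q5 -4.31, the airway secreted protein Bpifa1 -4.21 and the sulfotransferase Sult1d1 -4.18. Values between -4 and -3 belonged to Mmp3 (-3.86), Ch25h (-3.70), Cyp2b10 (-3.49), Apod (-3.43) and Ms4a4d (-3.09). Cdo1, the cysteine dioxygenase, had -2.85, Ankrd1 -2.75, Scel -2.23 and Sphk1 itself -1.77. SK HO 2 lay nearest to WT HO among the knockout arrays for Chil3, Zbtb16, Inmt and Bpifa1.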

How the results depend on the processing

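No alternative turned the sign of a called gene named in the text: of 135 such genes, 92 kept the call under every alternative other than the 2-fold minimum, and the 14 named genes that were not called stayed so. Aplnr and Car4 were not among the genes checked. The number of calls moved more than the direction. Against 1166 higher and 1208 lower in SK HO, the 6 hyperoxia arrays alone gave 609 and 569, a minimum of 2-fold 499 and 444, and SK HO 3 as the only knockout array 714 and 469, where the lone array was assumed to vary like the other groups. With the Y-linked covariate 677 were lower, and without the 4 arrays with high Y-linked genes, an alternative chosen after seeing the data, 589 were lower under hyperoxia and 608 in room air. In room air 411 were higher once transcripts of low level were left out, 123 with arrays centred on their medians and 118 at 2-fold, where 155 were lower. Array weights gave 643 higher and 435 lower in room air and 1761 negative interactions, which numbered 552 with SK HO 3 alone. Leaving out each of the 12 arrays gave 626 to 1412 higher and 622 to 1588 lower under hyperoxia, 71 to 305 higher and 123 to 284 lower in room air, and 651 to 1072 positive and 688 to 1293 negative interactions. Causes were not tested.

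The replicate number served as a block in another fit. Same-numbered SK HO and WT HO arrays had correlations of 0.064, 0.055 and 0.074 in their deviations from the group means, against -0.072 to 0.014 for other pairs, so that the numbers are not taken to pair the pups, although each SK HO array correlated best with its own number. The block gave 1299 higher and 1430 lower under hyperoxia, 374 higher and 292 lower in room air, and 976 positive and 1228 negative interactions, and of the named genes Itgb6 alone lost its call (adjusted p = 0.0665).

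Leaving out 1 hyperoxia array ended the call of 21 named genes, with adjusted p of 0.0501 to 0.174: Cma1 without SK HO 3, Slc27a6 without SK HO 1, Ccl5 without WT HO 3, S1pr1 without SK HO 3 or WT HO 2, Nqo1 without WT HO 2 or WT HO 3, Csta3 and Cstdc4 without WT HO 2, and Acer3, Axin2, Bpifa1, Cers2, Ephx1, Fgf18, Itgb6, Mfsd2b, Mt2, Npnt, Sftpc, Sgpp2, Sphk2 and Zbtb16 without any 1 of 3 to 6 arrays. The number of arrays, 3 per group, limits the precision, and nothing here measures spread beyond these pups.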

Other observations

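Fibroblast markers split, with 4 of the 19 measured genes higher in SK HO than in WT HO and 6 lower. The higher count was 9 without SK HO 2 and 2 without SK HO 1, SK HO 3, WT HO 1 or WT HO 3. Pdgfra, the receptor for platelet-derived growth factor of alveolar mesenchyme, was at 7.83, 9.44 and 8.28 in SK HO against 11.04, 11.07 and 10.83 in WT HO (-2.46), and Dcn, the small proteoglycan decorin, was lower by 1.07 on the log2 scale. Gpx3, the secreted glutathione peroxidase, was at 7.58, 7.38 and 7.61 in SK HO against 9.18, 9.55 and 9.71 in WT HO. In contrast Slit2, a guidance ligand, was at 9.34, 8.20 and 9.44 in SK HO against 7.24, 7.11 and 6.99 in WT HO, and the homeobox gene Meox2 differed by 1.92. SK HO 2 was the knockout array nearest to WT HO for Pdgfra, Slit2 and Meox2.

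Of 40 measured cytokine and chemokine genes 6 were lower in SK HO and none higher, and 3 were lower without WT HO 3. The chemokine Ccl5 was at 6.15, 6.11 and 6.30 in SK HO against 7.79, 8.12 and 8.68 in WT HO (-2.01), and Ccl20 differed by -1.20. Of 16 genes of retinoic acid metabolism and signalling 3 were lower. Lrat, which esterifies retinol for storage, was at 4.90, 4.84 and 4.99 in SK HO against 7.18, 6.38 and 7.28 in WT HO (-2.04), and Aldh1a1, which makes retinoic acid, was at 10.98, 10.80 and 11.01 in SK HO against 11.88, 11.90 and 11.97 in WT HO. Of 18 genes of the VEGF, angiopoietin and endothelin families 6 were higher and 1 lower, with Nrp1, a coreceptor of VEGF, at 10.40, 9.84 and 10.38 in SK HO against 8.84, 8.91 and 8.96 in WT HO. Among smooth muscle genes Myocd, the coactivator of the contractile programme, was higher (1.11), while Tagln and Des, which it is known to induce, were lower by 0.94 and 0.77. Of the 15 smooth muscle genes 3 were higher and 3 lower, against 5 higher and 2 lower without SK HO 2. With the Y-linked covariate 2 were lower. Des was at 8.79, 8.70 and 8.80 in SK HO against 9.50, 9.63 and 9.49 in WT HO. For this gene SK HO 3, with the female pattern, lay below the WT HO arrays as well. With SK HO 3 as the only knockout array, however, the lower calls of this list were not kept. A part of sex-linked expression in them was not tested. None of the 15 heart muscle genes and none of the 9 platelet genes was called, with medians of 0.77 and 0.30. Without SK HO 2, however, 3 heart muscle genes were higher. Of 9 housekeeping genes 1 was called, B2m, which was lower in SK HO and is given above with the class I genes. The mean of the housekeeping list was 9.79 to 10.04 in SK HO against 10.17 to 10.2 in WT HO (median difference -0.26).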
